A study of Mus musculus with 6 samples.

Results

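The genes described here are 10 of the 22956 genes of the deposited table, and they make up the machinery that releases, admits and removes calcium in a smooth muscle cell. They are the ryanodine receptor genes Ryr2 and Ryr3, the inositol trisphosphate receptor genes Itpr1, Itpr2 and Itpr3, the calcium channel gene Cacna1c, the pump genes Atp2a2 and Atp2b4, and the store protein genes Pln and Casq2. They were taken from the table by gene symbol. The set was selected on the measured CPM difference of Ryr2 between knockout and WT, which was known when the set was drawn up, so each difference between the genotypes below is a description of these libraries and carries no test of its own.

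Smooth muscle contracts when calcium in the cytosol rises and myosin light chain kinase is activated. Calcium enters through voltage-gated channels and leaves the sarcoplasmic reticulum through ryanodine receptors and inositol trisphosphate receptors. Pumps of the SERCA family return it to the reticulum and pumps of the plasma membrane expel it. In vascular muscle, brief openings of ryanodine receptors (calcium sparks) also open large-conductance potassium channels and so oppose contraction.

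RNA was sequenced from 6 samples that the labels call aortic smooth muscle cells. The animals were 30-week-old C57B6 mice, all fed a western diet for 20 weeks. The miR-21 knockout group had 3 libraries of the genotype miR-21fl/flmTmG/Myh11ERT2, in which the floxed microRNA gene can be deleted by an inducible Cre driven from the smooth muscle promoter of Myh11. The WT group had 3 libraries of the genotype WT/mTmG/Myh11ERT2, so the Cre driver and the mTmG reporter were shared by both groups. The level of the microRNA itself was not analysed here, so its loss is taken from the labels. No label says whether the replicates are separate animals, and the spread between libraries may be technical. Library totals ranged from 37787465 to 154384307 estimated counts, the largest being WT 3. Tissue was frozen before extraction, and the libraries held smooth muscle message at 27820 to 36200 CPM in the knockout and 23180 to 34830 CPM in WT, summed over 8 markers (CPM is the usual depth-scaled unit, here the estimated count over the TMM-scaled library total).

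MicroRNAs lower the messages whose 3′ untranslated regions pair with their seed, bases 2 to 8. The mature miR-21a-5p (chromosome 11, 86584120 to 86584141, minus strand, RefSeq on GRCm38.p6) and the 1 match to its seed among the 10 genes are shown together. Capitals mark the seed in the microRNA and the paired site in the message.
miR-21a-5p: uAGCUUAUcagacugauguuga
Cacna1c: tgatcaaagatATAAGCTAcaagctgagtc
The Cacna1c site (chromosome 6, 118591073 to 118591080, minus strand, GRCm38) lies in the exonic 3′ UTR of 6652 bases of 1 of 19 annotated transcripts of the gene that have a 3′ UTR, starting at base 2812 of that UTR. That transcript is tagged in the annotation as an alternative one and not as principal. The site is the longer form of the match, ATAAGCTA, which ends in an additional A. The seed match ATAAGCT was not found in the searched 3′ UTRs of the other 9 genes, Ryr2 (1414 bases) and Itpr1 (1270 bases) included, in any of their annotated transcripts. Of 15345 genes with a searched 3′ UTR, 6.95% held the seed match and 2.07% the longer form. Outside the Cacna1c site, the shorter match TAAGCT, without the first A, stood in the searched 3′ UTRs of Itpr1 (1), Atp2b4 (2) and Pln (1). Its share over all genes was not counted. A match is a stretch of letters and not a measured site.

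Per length of exon, the pump gene Atp2a2 stood far above the other members. Its level was 205 CPM per kilobase of merged exon as a mean of the 6 libraries, above 98.8% of the genes tested. Atp2a2 encodes SERCA2, the pump that refills the reticulum. The store release channel gene Itpr1 followed at 9.35 and the plasma membrane pump gene Atp2b4 at 8.10 CPM per kilobase. Pln was at 3.04, Itpr3 at 1.345, Cacna1c at 1.2, Ryr2 at 0.902, Itpr2 at 0.456, Casq2 at 0.288 and Ryr3 at 0.0126 CPM per kilobase. Each gene lay above the next in that order in all 6 libraries, except that Itpr3 lay above Cacna1c in 3 of 6. Merged exon counts every annotated exon, and for Ryr2 it comes to 28.8 kb, against 16814 bases in the principal transcript. Per length of 1 transcript per gene, Ryr2 was at 1.54, Cacna1c at 1.93 and Itpr3 at 1.35 CPM per kilobase. The order among these 3 genes therefore depends on the length used. The Cacna1c transcript used, of 13162 bases, is tagged as an alternative one and not as principal.

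**Figure D1:**
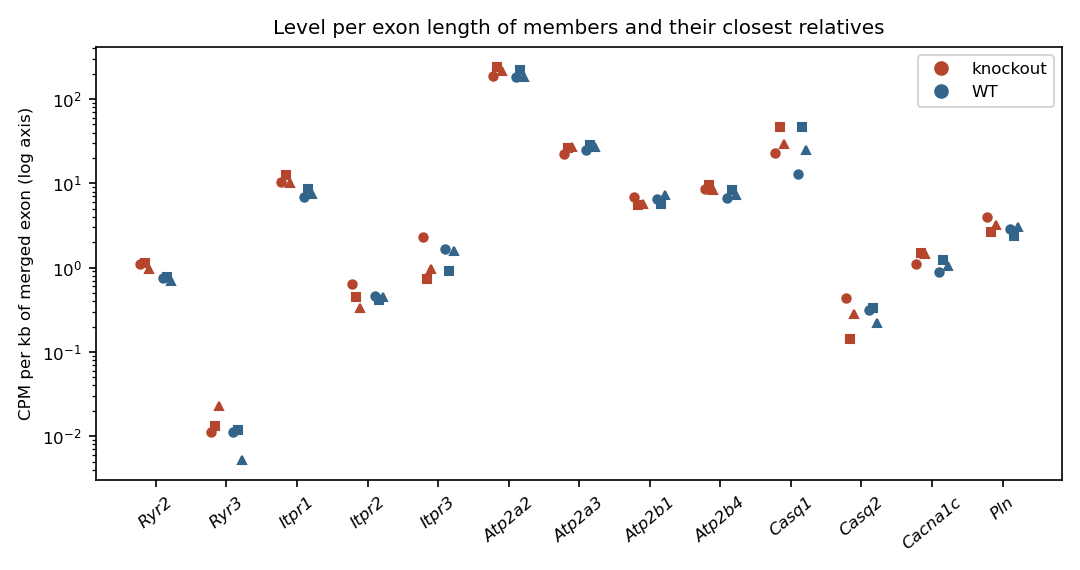
Level of the members and their closest relatives, in CPM per kilobase of merged exon on a log axis, with each point 1 library (knockout left, WT right of each gene). Atp2a2 lies near 205, Ryr2 near 0.902 and Ryr3 near 0.0126 CPM per kilobase.

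Ryr2 was the main ryanodine receptor of these samples and was higher in every knockout library than in any WT library. Ryr2 (chromosome 13, 11553102 to 12106945, minus strand, mm10) encodes the release channel best known from heart muscle, which is also present in vascular smooth muscle. Its level was 31.9, 32.3 and 28.04 CPM in knockout 1, 2 and 3, against 21.5, 22.02 and 20.01 CPM in WT 1, 2 and 3. The groups did not overlap, and the lowest knockout library lay above the highest WT library. The means were 30.8 ± 2.36 CPM in the knockout and 21.2 ± 1.04 CPM in WT (SD, n = 3 each), from 1189 to 2016 estimated counts in the knockout and 815 to 3081 in WT. Knockout over WT, the log2 fold change came to 0.54 ± 0.08 (SE), a ratio of 1.45. It lay between 0.50 and 0.60 when each library was left out in turn. Within a group the log2 level of Ryr2 varied by a standard deviation of 0.0932, the smallest of the 10 members.

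The other ryanodine receptor genes were near the limit of detection. Ryr3, a low-level form in many tissues, had 8.0, 11.1 and 31.1 estimated counts in knockout 1, 2 and 3, against 8.0, 9.1 and 15.1 in WT 1, 2 and 3. Scaled for depth, Ryr3 was at 0.2149, 0.2535 and 0.4329 CPM in knockout 1, 2 and 3. In WT 1, 2 and 3 it was at 0.212, 0.2222 and 0.09805 CPM. The CPM values overlapped between the groups, WT 2 lying just above knockout 1. Knockout 3 was the highest library and WT 3 the lowest, and Ryr3 did not pass the filter on low counts. Fitted without that filter, its log2 fold change was 0.87 ± 0.53 (SE). The exons of Ryr3 share 916 bases with Aven on the opposite strand, and no source used here says whether counting used strand. Ryr1, the skeletal muscle form, which is not a member, stayed at or below 0.0687 CPM in each library. Per length of merged exon, Ryr2 made up 98.4% ± 0.603 of the 3 ryanodine receptor messages in the knockout and 98.7% ± 0.521 in WT (SD, n = 3 each).

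Itpr1 was the main inositol trisphosphate receptor and, like Ryr2, was higher in every knockout library than in any WT library. This receptor (chromosome 6, 108213096 to 108551109, plus strand) releases stored calcium when hormones and transmitters generate inositol trisphosphate. Its level was 189, 231 and 184 CPM in knockout 1, 2 and 3, against 128, 158 and 138.3 CPM in WT 1, 2 and 3. The groups did not overlap, knockout 2 was the highest library and WT 1 the lowest. The log2 fold change was 0.51 ± 0.12 (SE), and it ranged from 0.40 without knockout 2 to 0.59 without WT 2. Itpr1 shares 181 and 108 exonic bases with the predicted antisense genes Gm44101 and Gm44040. Its level relative to Ryr2 was alike in both groups: the log2 ratio of Ryr2 to Itpr1 was -2.71 ± 0.132 in the knockout and -2.73 ± 0.143 in WT (SD, n = 3 each).

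**Figure D2:**
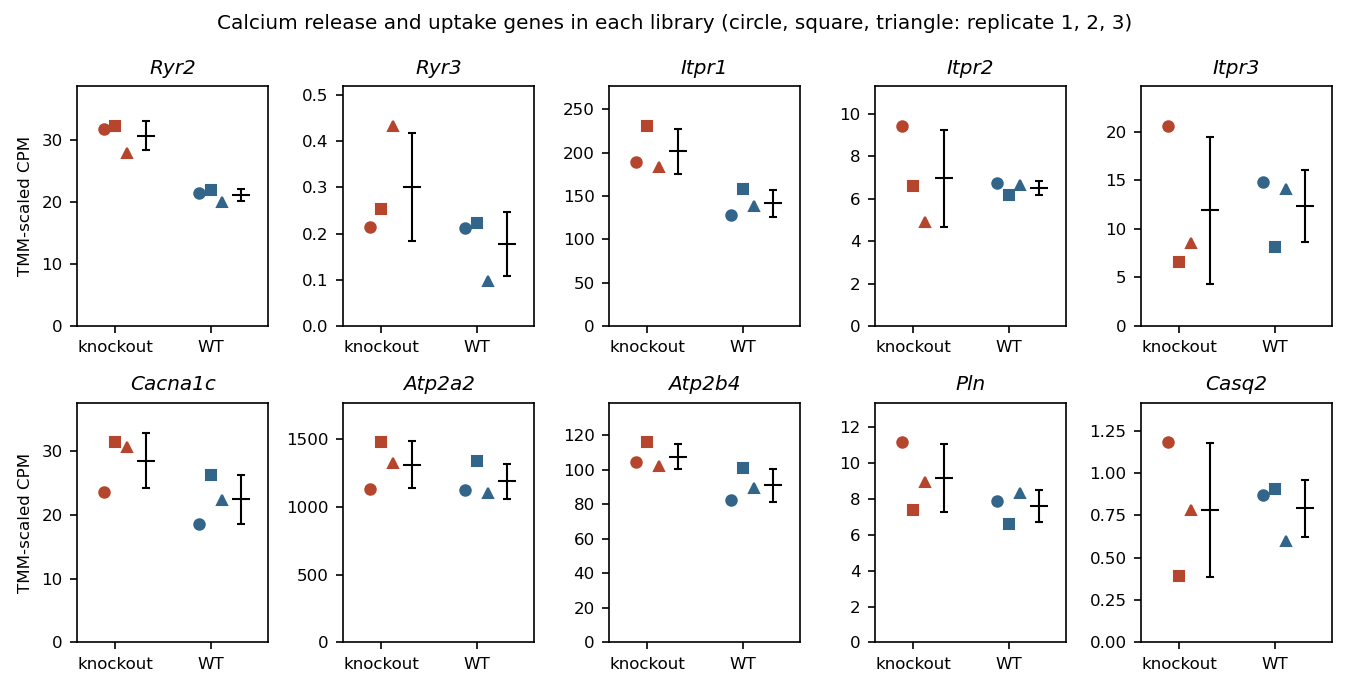
TMM-scaled CPM of the 10 members in each library, on linear axes from 0, with knockout left and WT right and the mean ± SD beside each group (n = 3). Ryr2, Itpr1 and Atp2b4 are the members whose groups do not overlap; Ryr2 lies at 28.04 CPM or above in the knockout and at 22.02 CPM or below in WT.

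The other receptor genes of this family overlapped between the groups. Itpr2 (chromosome 6, 146108299 to 146502223) had 9.44, 6.59 and 4.89 CPM in knockout 1, 2 and 3, against 6.75, 6.16 and 6.64 CPM in WT 1, 2 and 3. The knockout libraries lay on both sides of the narrow WT range, and the log2 fold change was 0.09 ± 0.23 (SE), turning to -0.19 without knockout 1. Itpr3 (chromosome 17, 27057304 to 27122223) had 20.6, 6.54 and 8.58 CPM in knockout 1, 2 and 3, against 14.9, 8.12 and 14.1 CPM in WT 1, 2 and 3. The groups overlapped, with knockout 1, WT 1 and WT 3 high and the other libraries low. Its log2 fold change was -0.07 ± 0.47 (SE), with values from -0.71 without knockout 1 to 0.22 without knockout 2. It shares 233 exonic bases with the antisense gene Itpr3os. Per length of merged exon, Itpr1 made up 78.0%, 91.5% and 88.7% of the 3 receptor messages in knockout 1, 2 and 3, against 76.9%, 86.8% and 78.9% in WT 1, 2 and 3. These shares overlapped between the groups, and in each group the library with the most Itpr3 had the lowest share of Itpr1.

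The 3 high and 3 low libraries of Itpr3 were also those of the markers of adventitial fibroblasts, the cells of the outer coat of the aorta. The 8 fibroblast markers summed to 5426, 1306 and 1844 CPM in knockout 1, 2 and 3, against 6637, 2984 and 5929 CPM in WT 1, 2 and 3. Of these markers, 1 lay above 0 and 7 below 0 in log2 fold change. Tubb3 and S100b, which lead the neuron and glia list, put that list in the same order: it summed to 22.9, 7.90 and 10.7 CPM in knockout 1, 2 and 3, against 27.3, 14.9 and 23.03 CPM in WT 1, 2 and 3. The part of these markers in the values of Itpr3 was not tested. In bulk RNA, fewer cells of a type and less RNA per cell cannot be told apart.

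Cacna1c, the entry channel gene and the 1 member with a seed match, was higher on average in the knockout with overlapping groups. It encodes the pore of the L-type channel CaV1.2 through which depolarization admits calcium (chromosome 6, 118587240 to 119196418, minus strand). Its level was 23.5, 31.3 and 30.6 CPM in knockout 1, 2 and 3, against 18.6, 26.2 and 22.4 CPM in WT 1, 2 and 3. WT 2 lay above knockout 1. The log2 fold change was 0.35 ± 0.16 (SE), and it was 0.23 without WT 1 and 0.47 without WT 2. Ryr2 and Itpr1 hold no seed match in the searched UTRs, though Itpr1 holds the shorter match TAAGCT. Their log2 fold changes were 0.54 and 0.51. The part of seed matches in any of these values was not tested.

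The pump genes differed less. Atp2a2 (chromosome 5, 122453513 to 122502225) had 1133, 1475 and 1326 CPM in knockout 1, 2 and 3, against 1122, 1336 and 1104 CPM in WT 1, 2 and 3. The groups overlapped, and the log2 fold change was 0.14 ± 0.13 (SE), with 0.05 without knockout 2. It shares 83 exonic bases with the predicted gene Gm43361. Atp2b4 (chromosome 1, 133699457 to 133801041), a pump that expels calcium across the plasma membrane, had 104, 116 and 102.3 CPM in knockout 1, 2 and 3, against 82.3, 101 and 89.4 CPM in WT 1, 2 and 3. The groups did not overlap, although knockout 3 exceeded WT 2 by little. The log2 fold change was 0.24 ± 0.09 (SE), between 0.18 without WT 1 and 0.32 without WT 2.

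Set against the refilling pump, Ryr2 and Itpr1 were higher in every knockout library. The log2 ratio of Ryr2 to Atp2a2 was -5.15, -5.51 and -5.56 in knockout 1, 2 and 3, against -5.71, -5.92 and -5.79 in WT 1, 2 and 3. That of Itpr1 to Atp2a2 was -2.58, -2.68 and -2.85 in knockout 1, 2 and 3, against -3.13, -3.08 and -2.996 in WT 1, 2 and 3. Neither ratio overlapped between the groups. The log2 ratio of Ryr2 to Cacna1c did overlap, at 0.12 ± 0.289 in the knockout and -0.0684 ± 0.243 in WT (SD, n = 3 each). Atp2a2 has 6.08 kb of merged exon, against 28.8 kb for Ryr2 and 18.3 kb for Itpr1. Long genes lay higher in the knockout, and the part of length in these ratios was not tested. Against Myh11, the smooth muscle myosin, the ratios of Ryr2 and Itpr1 overlapped. The log2 ratio of Ryr2 to Myh11 was -7.80, -8.19 and -8.27 in knockout 1, 2 and 3, against -7.98, -8.55 and -8.45 in WT 1, 2 and 3. WT 1 lay above knockout 2 and knockout 3 there. These ratios come from the same libraries as the fold changes and are not independent of them.

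Both store protein genes overlapped between the groups. Per length of merged exon, Pln lay above 46.7% and Casq2 above 12.5% of the genes tested. Pln encodes phospholamban, the small membrane protein that restrains SERCA2 (chromosome 10, 53337667 to 53345987). It had 11.1, 7.40 and 8.95 CPM in knockout 1, 2 and 3, against 7.88, 6.60 and 8.33 CPM in WT 1, 2 and 3. The groups overlapped, and the log2 fold change was 0.26 ± 0.17 (SE), with 0.10 without knockout 1. The exons of Pln share 141 bases with Cep85l and 1644 bases with the predicted gene Gm47644, both on the opposite strand, so its counts are uncertain. Casq2 encodes the cardiac calsequestrin, a calcium-binding protein of the reticulum (chromosome 3, 102086415 to 102146514). It had 1.18, 0.389 and 0.779 CPM in knockout 1, 2 and 3, against 0.870, 0.908 and 0.597 CPM in WT 1, 2 and 3. The highest and the lowest library in CPM were both knockout. Estimated counts ran from 17.0 in knockout 2 to 92.0 in WT 3, the most deeply sequenced library. The log2 fold change was 0.00 ± 0.43 (SE). Without knockout 1 it was -0.40 and without knockout 2 it was 0.31.

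Casq1, the calsequestrin known from skeletal muscle and no member, was the more abundant form. Per length of merged exon it made up 99.0% ± 0.776 of the calsequestrin message in the knockout and 98.7% ± 0.924 in WT (SD, n = 3 each). Its level was 44.6, 90.2 and 57.3 CPM in knockout 1, 2 and 3, against 25.4, 90.3 and 48.3 CPM in WT 1, 2 and 3. The replicate spread was far larger than the difference between groups, and 156 of its exonic bases are shared with the antisense gene Gm17224. In the pump families, Atp2a2 made up 89.5% ± 0.746 of SERCA message (Atp2a2 and Atp2a3) in the knockout and 88.0% ± 0.827 in WT. The Atp2a2 shares did not overlap, by a narrow gap: knockout 3 was at 88.9% and WT 2 at 88.58%. Atp2b4 made up 59.2% ± 3.99 of the message of Atp2b1, Atp2b2 and Atp2b4 in the knockout and 53.2% ± 5.20 in WT. The Atp2b4 shares overlapped.

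**Figure D3:**
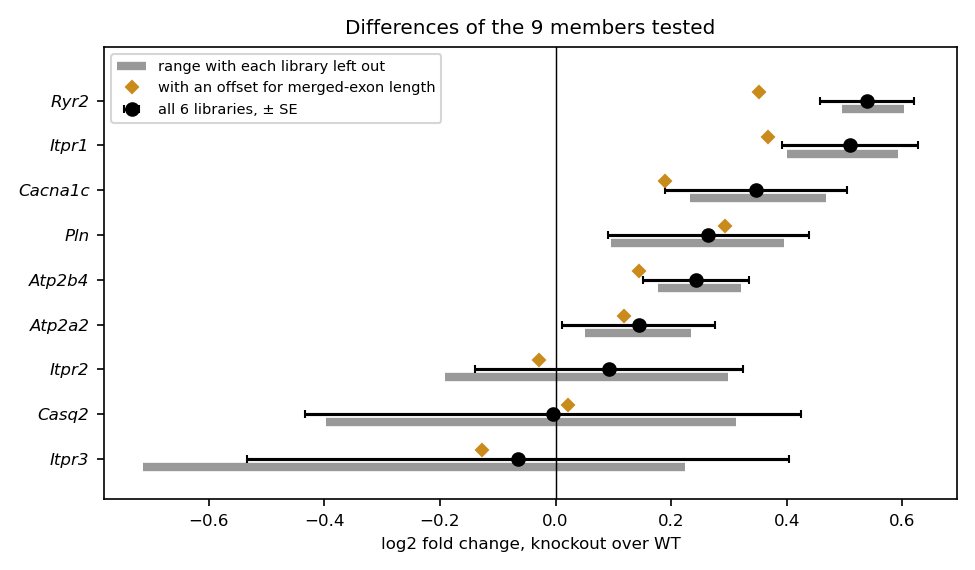
Log2 fold changes, knockout over WT, of the 9 members tested: black points with the SE bar use all 6 libraries, grey bars span the values with each library left out, and diamonds use an offset for merged-exon length. Ryr2 is at 0.54 and Itpr1 at 0.51 with all libraries, and at 0.35 and 0.37 with the offset.

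Among the 16654 genes tested, 0 passed edgeR's quasi-likelihood test at a Benjamini-Hochberg adjusted p under 0.05 (0.0% called), and so 0 of the 9 members tested did. At an unadjusted p under 0.05, 3 members were higher (Ryr2, Itpr1 and Atp2b4), where 3.95% of all genes were higher, and 0 members were lower, where 2.01% of all genes were. In DESeq2's Wald test, 2 members (Ryr2 and Itpr1) passed an adjusted p under 0.05 on the higher side, where 0.41% of genes did, and 0 on the lower side, where 0.0782% did. Every knockout library lay above every WT library for 3 of 9 members, as for 6.53% of all genes, and below them for 0 of 9, as for 5.59% of all genes. The log2 fold change was above 0 for 7 of 9 members, against 49.4% of all genes, and the median was 0.24 over the 9 members and 0.00 over all genes. Nothing is read from these counts, since the comparison that chose the set is the one counted. At an unadjusted p under 0.05, Atp2b4 dropped out without WT 1, without WT 3 and without knockout 2. Cacna1c joined without WT 2. Without knockout 1, Cacna1c joined on the higher side and Itpr3 on the lower side.

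Long genes lay higher in the knockout, and Ryr2, Itpr1 and Cacna1c, the members tested with the largest log2 fold changes, are long. Pln, at 0.26, is short, and Itpr2, at 0.09, is long. The median log2 fold change was -0.03 in the 8732 genes with up to 4 kb of merged exon and 0.12 in the 776 genes over 12 kb. By class of length, the median was 0.00 between 4 and 6 kb, 0.03 between 6 and 8 kb, 0.06 between 8 and 12 kb, 0.10 between 12 and 16 kb, 0.13 between 16 and 20 kb and 0.14 over 20 kb. Over 20 kb, 81.4% of genes lay above 0. Relative to the mean of the 6 libraries, the median log2 level of these longest genes was 0.08, 0.08 and 0.04 in knockout 1, 2 and 3, against -0.01, -0.05 and -0.17 in WT 1, 2 and 3. WT 3, the most deeply sequenced library, was the lowest. Without it the median of genes over 12 kb was 0.09.

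Ryr2 has 28.8 kb of merged exon, Cacna1c 21.2 kb, Itpr1 18.3 kb, Itpr2 14.8 kb and Atp2b4 12.2 kb, against a median of 3.79 kb over the genes tested. Of the genes over 20 kb, 2 had a higher log2 fold change than Ryr2 and 12 a higher one than Cacna1c. The set was selected on the difference of Ryr2, so the rank of Ryr2 describes these libraries and carries no test. Of the 185 genes between 16 and 20 kb, 7 had a higher one than Itpr1. Between 12 and 16 kb, 87 of 489 genes were above Atp2b4 and 263 above Itpr2, which therefore stood in the middle of its class. With an offset per library for merged-exon length, an alternative chosen after seeing the data, the log2 fold change was 0.35 ± 0.07 for Ryr2, 0.37 ± 0.12 for Itpr1, 0.19 ± 0.17 for Cacna1c, 0.15 ± 0.10 for Atp2b4 and -0.03 ± 0.23 for Itpr2 (SE). Pln, with 2.76 kb, was at 0.29 ± 0.17 with the offset.

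**Figure D4:**
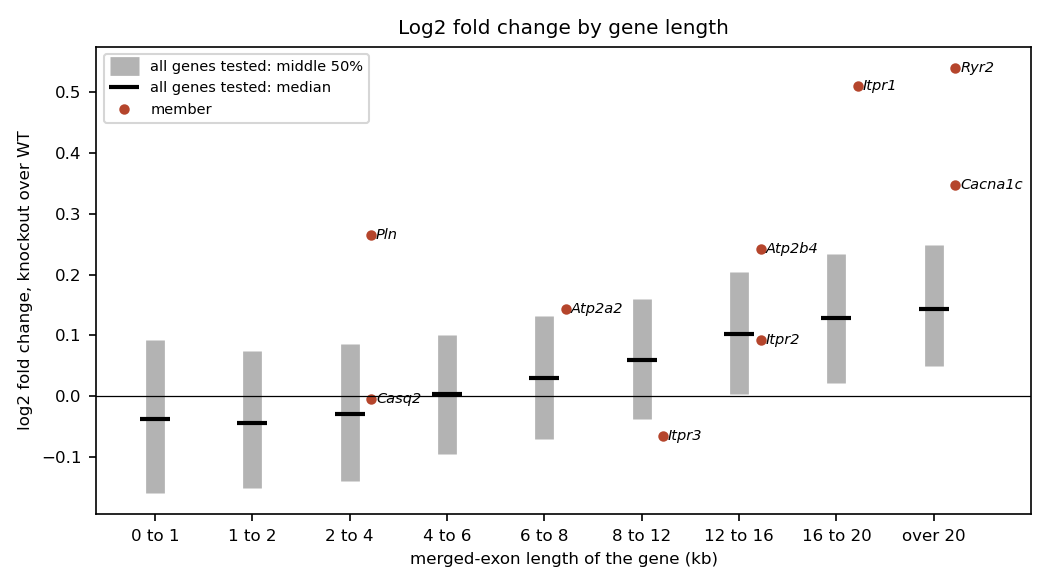
Log2 fold change, knockout over WT, by merged-exon length of the gene in kb: grey bars span the middle 50% of all genes tested in each class, black lines are medians, and red points are members. Above 2 kb the median goes up with length, to 0.14 over 20 kb. Ryr2 at 0.54, Itpr1 at 0.51 and Cacna1c at 0.35 lie above the bars of their classes. So do Pln at 0.26, Atp2b4 at 0.24 and Atp2a2 at 0.14. Itpr3 at -0.07 lies below its bar, and Itpr2 and Casq2 lie within theirs. The set was selected on the difference of Ryr2, so the place of Ryr2 carries no test.

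The 5 genes whose levels over the 6 libraries were most like those of Ryr2 were Alms1, Crybg3, Dmxl1, Trio and Adgra2. The root-mean-square difference of their centred log2 levels from Ryr2 was 0.0743 for Alms1, a gene of the centrosome and cilium base. It was 0.0931 for Crybg3, 0.0955 for Dmxl1, 0.0969 for Trio and 0.0986 for Adgra2, an adhesion receptor. The median over 10608 genes was 0.297. Picking genes by likeness to Ryr2 over these same libraries fixes their separation of the groups, so their log2 fold changes, from 0.37 to 0.56, follow from the choice. In all 5, as in 6.53% of all genes, every knockout library lay above every WT library. Alms1, Crybg3, Dmxl1 and Trio have 20.3, 12.7, 21.9 and 23.4 kb of merged exon, and Adgra2 has 5.78 kb. Among the members, Itpr1 stood at rank 18 (0.113), Atp2b4 at 234, Cacna1c at 1494, Atp2a2 at 1765, Pln at 2854, Itpr2 at 7242 and Itpr3 at 10297.

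Ryr2, Pln and Casq2 are also genes of heart muscle, and markers of other muscle were present at low levels. The 10 cardiac markers analysed summed to 20.1, 47.4 and 19.9 CPM in knockout 1, 2 and 3, against 30.5, 39.2 and 22.2 CPM in WT 1, 2 and 3. These sums overlapped, with knockout 2 and WT 2 high, and 5 of the 6 cardiac markers tested were above 0 in log2 fold change. Most of the sum was Tnnt2 and Actn2. Among defining genes of heart muscle, Myl2, Myl3 and Mybpc3 averaged under 0.1 CPM, and Myh6 reached 0.863 CPM at most. The cardiac troponin gene Tnni3 did not overlap between the groups: it had 0.510, 0.709 and 0.681 CPM in knockout 1, 2 and 3, against 0.396, 0.442 and 0.247 CPM in WT 1, 2 and 3. Its log2 fold change was 0.86 ± 0.34 (SE), and it was the 1 cardiac marker under an unadjusted edgeR p of 0.05. Its part in the difference of Ryr2 was not tested. Myh7, a ventricular and slow myosin, was at 3.32 CPM in knockout 2, 1.80 CPM in WT 2 and at or below 0.358 CPM in the other libraries. The log2 fold change of Ryr2 was 0.50 without knockout 2 and 0.56 without WT 2. Skeletal muscle markers (6 of 9 analysed) summed to 11.2 to 16.5 CPM in the knockout and 11.1 to 13.98 CPM in WT.

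Summed markers of other cells overlapped between the groups as well. Of 9 neuron and glia markers, a list of interest because Itpr1 and Ryr3 are also genes of neurons, Snap25 and Sox10 averaged under 0.1 CPM. Macrophage markers (8) summed to 6.39 to 28.98 CPM in the knockout and 7.75 to 29.5 CPM in WT. Endothelial markers (8) summed to 61.8 to 71.5 CPM in the knockout and 61.3 to 68.7 CPM in WT. Most of that sum was Pecam1, at a mean of 59.3 CPM, while Cdh5 and Kdr averaged 0.280 and 0.295 CPM. Perivascular adipocyte markers (3 of 8 analysed) summed to 43.6 to 58.5 CPM in the knockout and 42.6 to 53.7 CPM in WT. Most of that sum was Fabp4, at a mean of 44.2 CPM. The 7 T and B lymphocyte markers summed to at most 0.366 CPM in the knockout and 0.580 CPM in WT. Of the 8 smooth muscle markers, 7 lay above 0 in log2 fold change and Des below, with a median of 0.13. Myocd, a coactivator of smooth muscle genes, was the 1 under an unadjusted edgeR p of 0.05, at 0.36 ± 0.15 (SE) with overlapping groups. Des, the muscle intermediate filament, was at -0.45 ± 0.20, with every knockout library below every WT library. Without WT 1 Tagln, Cnn1 and Smtn turned below 0. The part of these marker levels in the differences of the members was not tested.

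**Figure D5:**
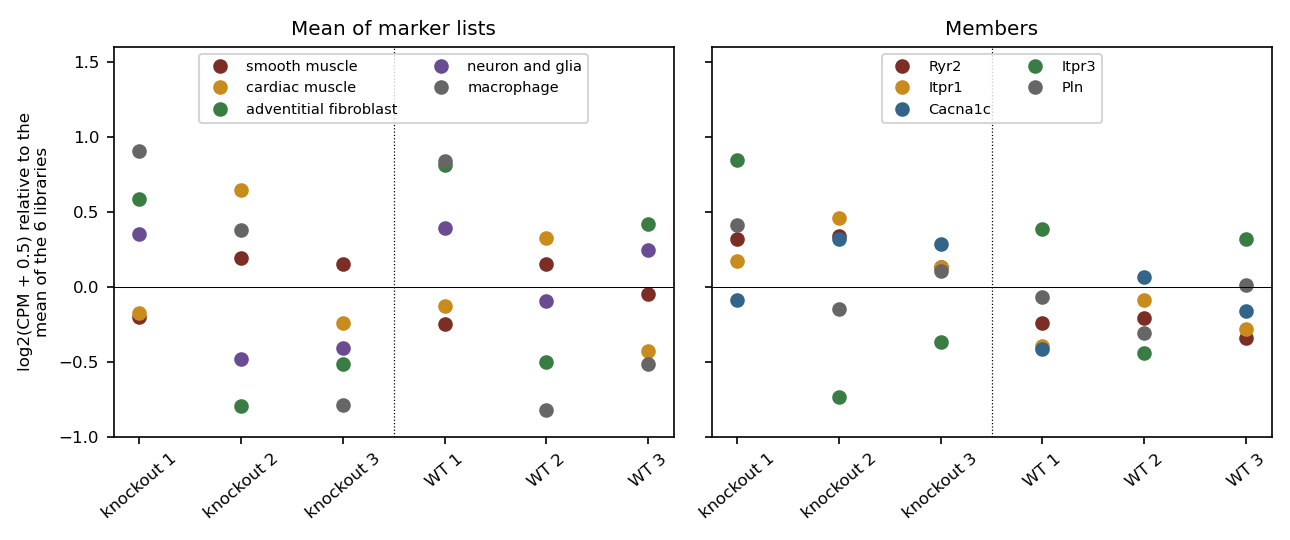
Level in each library relative to the mean of the 6 libraries, as log2 of CPM plus 0.5, for the mean of 5 marker lists (left) and for 5 members (right), with knockout libraries left of the dotted line and WT right. Ryr2 and Itpr1 lie above 0 in the 3 knockout libraries and below 0 in the 3 WT libraries, while Itpr3 and the adventitial fibroblast list are high in knockout 1, WT 1 and WT 3.

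The other calcium genes were spread evenly about 0. Across 6 lists of other calcium genes, 88 of 97 genes were tested, 0 passed the edgeR threshold and 0 that of DESeq2. Their log2 fold changes were above 0 for 42 and below 0 for 46, with a median of 0.00. At an unadjusted edgeR p under 0.05, 4 were higher (Stim1, Homer1, Mrvi1 and Nfatc4) and 3 lower (Trpc6, Tmco1 and Ppp3ca), which is 4 and 3 of 88 where 3.95% and 2.01% of all genes were. Mrvi1 and Trpc6 were named after their values were seen. With the length offset 0 were higher. The seed match stood in 7 of these 88 genes (7.95%). These were Orai1, Jph1, Cacnb3, Cacna2d1, Kcnmb1, Nfatc3 and Atp2b2. Their log2 fold changes were -0.05, 0.00, -0.16, 0.00, 0.16, 0.07 and 0.54, in that order. The SE for Atp2b2 was 0.36, at a mean of 0.837 CPM.

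Of 10 genes of store-operated entry, 5 lay above and 5 below 0 in log2 fold change, with a median of 0.00. Stim1, the calcium sensor of the reticulum, had 69.1 ± 1.38 CPM in the knockout and 61.5 ± 1.58 CPM in WT (SD, n = 3 each), and its log2 fold change was 0.17 ± 0.05 (SE). With the length offset it was 0.09. Tmem110, a partner of Stim1, was at 0.28 ± 0.14, Saraf, which shuts off store-operated entry, at -0.04 ± 0.06, and the channel gene Trpc1 at 0.14 ± 0.06. Trpc6, a receptor-operated channel gene, had the log2 fold change farthest from 0 in the 6 lists, -1.16 ± 0.40 (SE): it had 0.375, 0.732 and 0.459 CPM in knockout 1, 2 and 3, against 1.74, 0.835 and 0.968 CPM in WT 1, 2 and 3, and the groups did not overlap.

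Of 21 partners of the release channels, 13 lay above and 8 below 0, with a median of 0.01. Jph2, a junctophilin that holds the reticulum to the plasma membrane, had 578 ± 82.8 CPM in the knockout and 475 ± 98.8 CPM in WT, and its groups overlapped. Homer1, a scaffold that binds both kinds of release channel, had 21.5 ± 1.83 CPM in the knockout and 17.9 ± 1.33 CPM in WT, a log2 fold change of 0.26 ± 0.09 (SE). Asph, whose forms include junctin, was at -0.01 ± 0.08 and turned sign when single libraries were left out. Tmco1, a channel that relieves overfilled stores, was at -0.18 ± 0.07.

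Of 9 voltage-gated channel subunits, 6 lay above and 3 below 0, with a median of 0.00. Cacna1d, the pore of another L-type channel, had 9.92 ± 0.799 CPM in the knockout and 8.03 ± 1.10 CPM in WT, with overlapping groups. The auxiliary subunits Cacna2d1, Cacnb2, Cacnb3 and Cacnb4 had log2 fold changes of 0.00 ± 0.06, 0.10 ± 0.12, -0.16 ± 0.12 and 0.44 ± 0.31 (SE). Cacna2d1 holds the longer form of the seed match, and it turned to -0.09 with the length offset.

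Of 15 other pumps, exchangers and store proteins, 4 lay above and 11 below 0, with a median of -0.02. Calu and Calr, calcium-binding proteins of the secretory pathway, had log2 fold changes of -0.10 ± 0.09 and -0.15 ± 0.11, and Rcn3, of the same kind as Calu, -0.01 ± 0.07 (SE). Of 11 genes of mitochondrial uptake, 3 lay above and 8 below 0, with a median of -0.05. Mcur1, a regulator of the uniporter, was at 0.28 ± 0.13, Micu3 at 0.15 ± 0.09, and the outer membrane channel genes Vdac1 and Vdac2 at -0.06 ± 0.08 and -0.04 ± 0.08 (SE).

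Of 22 effectors that calcium activates, 11 lay above and 11 below 0, with a median of 0.02. Mylk, the myosin light chain kinase, had 1432 ± 219 CPM in the knockout and 1225 ± 183 CPM in WT. Kcnmb1, the subunit that tunes the potassium channel opened by calcium sparks, had 377 ± 38.2 CPM in the knockout and 338 ± 37.96 CPM in WT. Both overlapped between the groups. Rcan2, an inhibitor of calcineurin, was at 0.24 ± 0.12, the calcineurin subunit gene Ppp3ca at -0.35 ± 0.14, and Nfatc4, a transcription factor that calcineurin activates, at 0.17 ± 0.07 (SE).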

How the data were processed

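Values deposited by the authors were estimated counts (expected counts, not normalized), 1 per gene and library, for 6 libraries. Per the submitters' processing notes, the genome build was mm10. The notes also name STAR 2.6 and DESeq2 without saying what each did. Which counter, annotation and strand setting gave the estimates is not given in the sources. Estimated counts divide reads among overlapping or similar genes, and they were rounded to whole numbers before testing. Columns were assigned by the sample code in their names, and 0 columns remained unassigned.

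Genes kept by filterByExpr (16654) were scaled by TMM and tested, knockout over WT, two-sided, with the robust quasi-likelihood test of edgeR 4.0.16 (R 4.3.3), adjusted by Benjamini-Hochberg at 0.05. SEs are the log2 fold change divided by the root of F. The script was tested on simulated data. The alternatives tried were upper-quartile factors, DESeq2 size factors, no filter, at least 1 CPM in 3 libraries, DESeq2 1.42.0, limma 3.58.1 (voom with sample weights), a replicate block and leaving out each library. An offset for merged-exon length (lowess per library) was chosen after seeing the data. Profiles used log2 of CPM plus 0.5.

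The members and lists were chosen with earlier results of these data known. Named genes were all members, from each of the 6 lists of other calcium genes the 3 of highest mean CPM and the 2 of smallest p with at least 1 CPM, and the 5 genes nearest Ryr2 with at least 4 CPM, predicted genes left out. One of the genes this rule names is not reported here. Gene models, lengths and 3′ UTRs came from GENCODE M21, whose assembly GRCm38 is mm10: 21548 genes matched by position once the end in the table was lowered by 1, 1347 by symbol and 61 not at all. The seed match was searched in 1 transcript per gene, the best APPRIS principal one where tagged, if its 3′ UTR had 8 bases or more, and for the members in every transcript. Coordinates are 1-based. Libraries of 1 group differed beyond counting noise: their chi-square statistic averaged 27.6 to 98.6 a gene. Separate preparations of 1 animal could differ in this way too, so the statistic cannot tell whether replicates are separate animals. Intervals and SEs cover the spread between these 6 libraries. Python 3.11.15 was used for summaries and figures.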

Additional observations from a re-analysis of the deposited data

How the results depend on the processing

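Ryr2 was between 0.50 and 0.60 in log2 fold change over all alternatives except the length offset (0.35). Of 475 values of 34 single genes under alternatives, 469 moved by less than 1 within-group SD and 6 by that or more. Of these 6, 4 came with the length offset. Leaving out 1 of 3 libraries shifts a group mean by only part of that library's deviation. The count is therefore no test of robustness. The sign turned in 3 alternatives for Itpr2, 4 for Itpr3 and 5 for Casq2. Genes called higher numbered 0 in edgeR and limma-voom and 63 in DESeq2. Genes called lower numbered 12 in DESeq2, 1 with the replicate block and 0 to 1 with each library left out. Members lower at an unadjusted p under 0.05 numbered 0 to 1 with each library left out. Other calcium genes higher at that p (4) numbered 2 with upper-quartile factors, 14 with the replicate block, 7 in limma-voom, 0 with the length offset and 1 to 9 with each library left out. Those lower (3) numbered 6 with the replicate block and 0 to 6 with each library left out. Causes were not tested. The replicate numbers were taken as numbers alone: same-numbered libraries correlated by 0.381, 0.446 and -0.0241 in their deviations from group means. By number, WT 1 and WT 2 correlated best with knockout 1 and knockout 2, and WT 3 with knockout 1. The block, limma-voom and DESeq2 each added Cacna1c to the members at an unadjusted p under 0.05. Low counts limit Ryr3 and Casq2.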
